A study of Mus musculus with 44 samples.

Results

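Wide single-exon m6A peaks are stretches of at least 600 bp inside 1 exonic block where liver RNA was enriched by an antibody against N6-methyladenosine (m6A). They were chosen by width, a measured value, as the plus-strand peaks with 1 block of 600 bp or more in the 4 peak lists called against IgG, and were set against plus-strand peaks with 1 block under 600 bp. There were 625 of them, 104 in the control list, 86 in the Aroclor1260 list, 238 in the PCB126 list and 197 in the combination list. They were a small part of the 11985 peaks called against IgG, which included 7143 narrower single-block peaks on the same strand. The width set the members, so width, and the fold enrichment and false discovery rate from the same contrast, are given as description with no test.

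All animals were male C57Bl/6J mice, an inbred strain, on a high-fat diet with 42% of its energy from fat, over a 12-week study. The control group received vehicle, and the other groups received Aroclor1260, PCB126 or both compounds once by mouth at week 2, at doses not given in the sources used here. Aroclor1260 was sold as a technical blend of many heavily chlorinated biphenyls, whereas PCB126 is 1 congener of dioxin-like shape that binds the aryl hydrocarbon receptor. The 44 libraries comprised, for each of the 4 treatments, 5 m6A immunoprecipitates, 5 inputs and 1 pooled IgG immunoprecipitate. Each deposited list is 1 set of peaks for a whole treatment, so no value has a replicate error, no test across animals was possible, and the depth behind each list is unknown. The 4 lists held 2091 peaks (control), 2082 (Aroclor1260), 4129 (PCB126) and 3683 (combination).

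The methyl group of m6A is written on the RNA as it is made by a complex built around METTL3 and METTL14, mostly at short motifs of the GGAC type. It gathers in long internal exons and in last exons near the stop codon, and YTH-domain proteins that bind it can shorten the life of a transcript or change its translation. In the immunoprecipitation, fragments around every methylated base are recovered, so a wide peak marks a long stretch of exon covered by enriched fragments and does not count the methylated bases in it. In whole liver, fewer cells of a type and less RNA per cell cannot be told apart.

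Bases of the wide peaks themselves could be read only where a peak reached a RefSeq window (GRCm38.p6) from 250 bases before to 50 after an annotated start site. This was so for 11 wide peaks at 6 genes, and GGAC on the transcribed strand was found in the covered stretch at Hyal1 and Gpd1. Hyal1 encodes a lysosomal hyaluronidase, and Gpd1 encodes the cytosolic glycerol-3-phosphate dehydrogenase. These sites are shown because they are the motif inside wide peaks, in mm10 plus-strand coordinates, with the motif in capitals, 1 for each gene.
Hyal1, chr9:107580487-107580514: accaacccacgaGGACtggagaccctac
Gpd1, chr15:99724443-99724462: cctcgcgagatcGGACccac

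The Hyal1 site shown lay in the wide peak of the PCB126 list, which had a fold enrichment of 7.2, and in that of the combination list at 3.4. The control and Aroclor1260 lists had narrower peaks at this stretch, at 6.0 and 5.2. The stretch also lies in Naa80, an actin acetyltransferase gene that overlaps Hyal1, so the transcript is uncertain. At Gpd1 the site lay in the wide peaks of the control list (1.95) and the PCB126 list (3.22), which had the same coordinates, and outside the shorter wide peak of the combination list (2.77). Across the 32851 windows of 300 bases, 65.7% held GGAC on the genome's plus strand, so a match in a window of this length is common. At Gpd1 only 38 bases were read, and 12.8% of the windows cut to that length held GGAC. Those 38 bases also held 1 GGAC on the other strand. The remaining stretches gave no match on the transcribed strand. At Zrsr1, an intronless and imprinted gene for a splicing factor, the 287 bases read from the PCB126 peak held no GGAC on the transcribed strand and 1 on the other, and at Hexim1 the 94 bases read held none on either strand.

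Wide peaks made up 7.60% of plus-strand single-block peaks in the control list (Wilson 95% interval 6.31% to 9.12%, counting error only) and 6.40% after Aroclor1260 (5.21% to 7.84%). They made up 9.14% after PCB126 (8.09% to 10.3%) and 8.04% after the combination (7.03% to 9.18%). The interval after PCB126 lies above that after Aroclor1260, and the other pairs of intervals overlap. That separation depended on the setting. At a 500 bp threshold the intervals overlapped (11.4% to 14.0% after PCB126, 8.48% to 11.7% after Aroclor1260). They also overlapped at 800 bp and among peaks with a fold enrichment of 2 or more. They stayed apart at a false discovery rate of 0.01 or less and with both strands taken. Because wide peaks are long, they held 26.4%, 23.5%, 31.2% and 27.1% of single-block peak bases in the 4 lists (control, Aroclor1260, PCB126, combination). Their median width was 794, 800, 846 and 800 bp in that order, against 151 bp for narrower peaks in each list. Their median fold enrichment over IgG, the authors' value, was 6.75, 7.175, 9.16 and 7.2, against 2.80, 2.80, 3.2 and 3.2. The wide peaks thus came with the stronger enrichment in each list, in values the selection itself drew on.

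The threshold separates peaks that hardly differ. Just inside it in the control list, peaks of 600 bp at Zbtb18, Ptprb and Ep300 had fold enrichments of 5.2, 17.2 and 4.4, and just outside it, peaks of 599 bp at Bach1, Usp47 and Paqr9 had 7.4, 11.2 and 1.87. In the Aroclor1260 list, the 3 peaks just inside, of 600, 601 and 639 bp at Srrm2, Arid1b and Igfals, had 2.47, 3.9 and 3.68, and those at 599 bp, at Tor1aip2, Rnf144b and Mpeg1, had 13.4, 41.4 and 2.53. In the PCB126 list, peaks of 600 bp at Slc30a1, Zrsr1 and Nsd1 had 8.1, 6.0 and 15.4, and those of 599 bp at Tor1aip2, Zbtb18 and Sdr9c7 had 30.6, 10.4 and 11.1. In the combination list, peaks of 600 bp at Xbp1, Egfr and an unnamed identifier had 3.15, 9.4 and 4.8, and those of 599 bp at Acot3, Golgb1 and Son had 9.26, 4.9 and 10.2. The 599 bp peak of Rnf144b had the highest fold enrichment of any narrower peak in the Aroclor1260 list, while the same gene was wide in the other 3 lists.

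The wide peaks lay at 95 gene identifiers in the control list, 78 after Aroclor1260, 211 after PCB126 and 177 in the combination list. These were 16.7%, 13.8%, 20.1% and 18.7% of all identifiers with a plus-strand peak in the same list. Over the 4 lists there were 288 identifiers, of which 280 could be named, all protein-coding genes under 278 names. The naming preferred a protein-coding gene where several genes qualified, so this class is partly set by the rule. Most identifiers with a wide peak also carried narrower peaks, 74 of the 95 in the control list and 164 of the 211 in the PCB126 list. Genes on the minus strand are hardly represented, since 95.1% to 96.3% of the peaks in these lists are on the plus strand. Of the 12 hepatocyte markers, 4 had a peak of any kind in the control list and 6 in each exposed list, and Apob was the marker with a wide one. Among listed markers of other liver cells, Bmp2 of sinusoidal endothelium had a wide peak in each exposed list. The control list had a peak of several blocks there. No listed marker of macrophages, stellate cells, cholangiocytes or lymphocytes had a wide peak. Mpeg1, a macrophage-expressed gene outside these marker lists, was wide after PCB126 and after the combination. The absence therefore holds for the listed markers only.

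Wide peaks that overlapped across lists were joined into 326 regions. Where a list had several wide peaks in a region, the fold enrichment and width given are those of the strongest. A wide peak was called in all 4 lists at 35 regions, in 3 lists at 43, in 2 lists at 85 and in 1 list at 163. A region wide in 1 list usually had some peak elsewhere: 71 of these 163 had a peak in all 4 lists and 19 had none in the other lists. In all, 188 of 326 regions (57.7%) had a peak of some kind in every list. By list, 88 regions were wide in PCB126 alone, 53 in PCB126 and the combination, 47 in the combination alone, 14 in the control alone and 14 in Aroclor1260 alone. The PCB126 and combination lists are the longest, and a list's length bears on how many of its peaks have no partner. A peak called against input, with the same m6A libraries, lay at 301 of the 326 regions.

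The 35 regions wide in every list covered transcription factors, receptors, glycogen and mitochondrial regulators, chromatin proteins and hepatocyte products, and 23 of them also had a peak in all 4 lists called against input. Jund encodes a Jun-family partner within AP-1, and its region at chr8:70699047-70700322 had fold enrichments of 41.5 in the control list, 36.0 after Aroclor1260, 208 after PCB126 and 92.4 in the combination list, the highest of the 35 in every list but the combination. The width there was between 1178 and 1276 bp with the same last base in all 4 lists. Bhlhe40, a transcriptional repressor of the circadian clock, had 20.5, 18.2, 46.6 and 28.2 in the same order of lists at chr6:108664548-108665935. Its wide peak began at the same base in all 4 lists and was longest in PCB126, at 1388 bp. Cebpb, a transcription factor of the acute phase and of fat metabolism, had 9.31, 25.3, 35.3 and 5.97 at chr2:167689012-167690176, so that its order across lists differed from that of Jund. The lowest value for Cebpb was that of the combination list, where its peak was also the shortest.

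Ythdf3 encodes a cytoplasmic YTH-domain protein that binds m6A, and so is itself part of the m6A machinery. Its region at chr3:16203989-16205081 had fold enrichments of 36.4 in the control list, 20.1 after Aroclor1260, 42.9 after PCB126 and 113 in the combination list. The wide peak measured 696 bp in 3 lists and 1093 bp in PCB126, where the fold enrichment was not the highest. It was the only one of the 3 m6A machinery genes with any peak, of 26 on the list, that had a wide peak.

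A pair of glycogen regulators belongs to the same 35. Ppp1r3b, which brings protein phosphatase 1 to glycogen in liver, had 19.4, 15.4, 43.6 and 11.2 in the 4 lists (control, Aroclor1260, PCB126, combination) at chr8:35384062-35386001. Its peak was 1841 bp long in each exposed list and 1940 bp in the control list. Ppp1r3g, a second targeting subunit of this phosphatase, had 9.0, 27.6, 40.0 and 31.4 at chr13:35968443-35970288, with widths of 1597 to 1846 bp. The control value was thus the lowest of 4 at Ppp1r3g and the second highest at Ppp1r3b. Pdp2, a phosphatase that activates the pyruvate dehydrogenase complex in mitochondria, had 9.2, 17.7, 22.8 and 13.2 at chr8:104594034-104595232.

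Among genes of the cell surface and matrix, Hs6st1, a 6-O-sulfotransferase of heparan sulfate, had 11.8 in the control list, 18.3 after Aroclor1260, 16.6 after PCB126 and 43.3 in the combination list at chr1:36103501-36104749. Sucnr1, a receptor for succinate, had 20.4, 10.6, 55.2 and 30.6 at chr3:60086275-60087318. Smim10l1, a small membrane protein, had 13.6, 12.0, 61.0 and 16.1 at chr6:133105552-133106888. The region second by lowest fold enrichment belonged to an unnamed identifier, ENSMUSG00000036181, which starts inside the linker histone gene H1f2 and runs past its RefSeq end at chr13:23739149-23740367, with 24.7, 21.6, 92.2 and 30.3. A second linker histone gene, H1f0, had 5.5, 10.2, 6.87 and 23.8. At the low end stood Apoa4, an apolipoprotein of chylomicrons and plasma, with 2.26, 2.68, 2.85 and 3.19, and Abat, which breaks down the transmitter GABA, with 2.47, 2.72, 3.13 and 3.2. The 35 regions thus spanned fold enrichments from 2.26 to 208 and were not a set of strong peaks only.

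**Figure D1:**
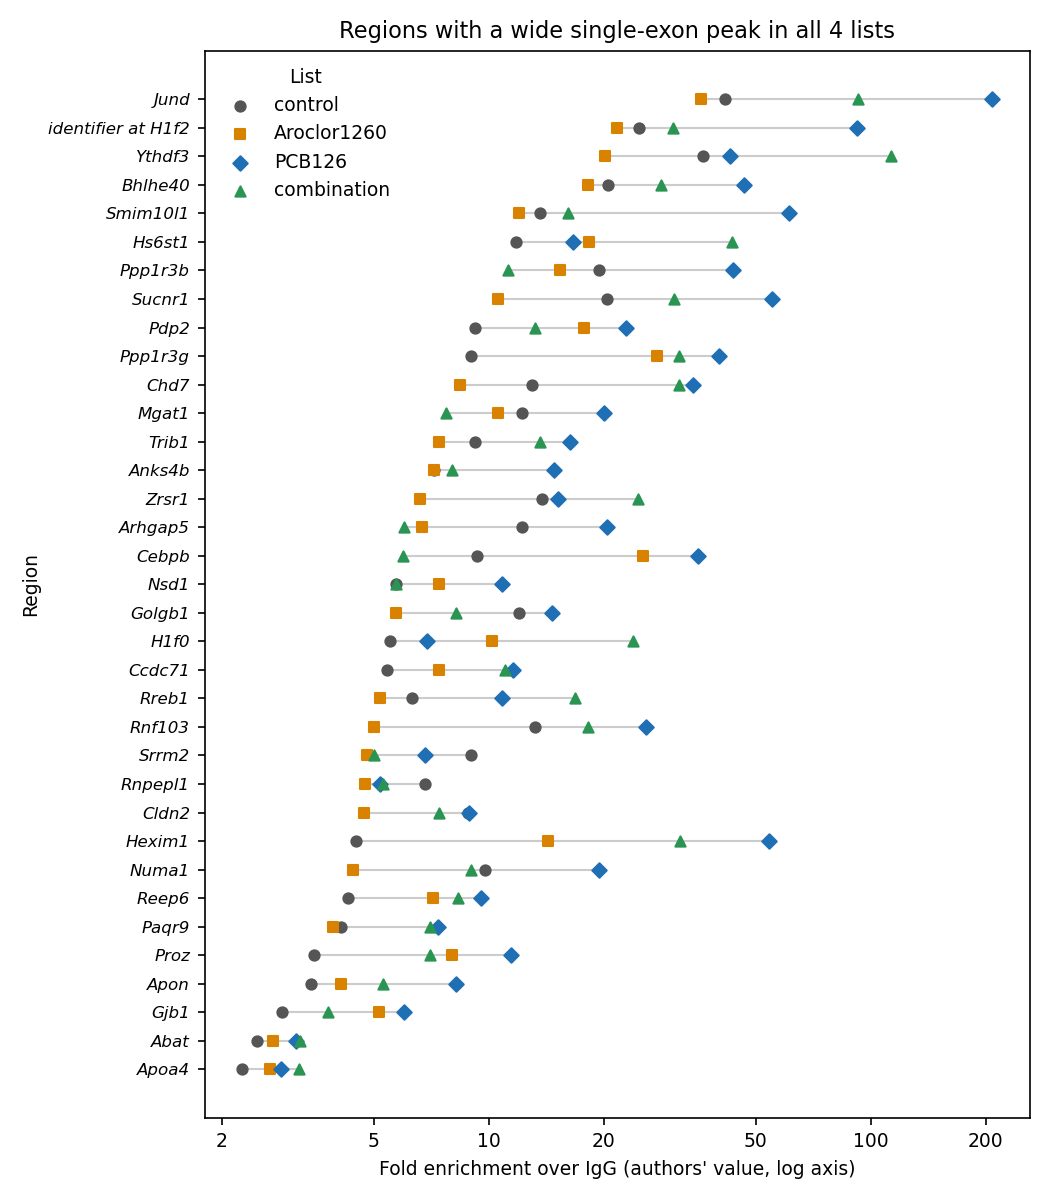
Fold enrichment over IgG (log axis, the authors' value) at the 35 regions with a wide single-exon peak in all 4 lists, 1 marker per list and no replicates. Jund stands at the top with 36.0 to 208 and Apoa4 at the bottom with 2.26 to 3.19, and the order of the 4 lists differs from region to region.

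The 35 regions were taken for a wide peak in all 4 lists, so presence was fixed, but their shape varied between lists. Of the 35 regions, 8 had the same first base in all 4 lists and 2 had the same last base. Numa1, a protein of the spindle and nuclear matrix, had a wide peak of 898 bp after Aroclor1260 and of 2739 bp after PCB126, and Rreb1, a zinc finger transcription factor, ranged from 751 bp in the control list to 2250 bp after PCB126. Arhgap5, a GTPase-activating protein, went the other way, with 2198 bp in the control list against 800 bp in the Aroclor1260 and combination lists. These are widths of the strongest wide peak of a list, and further wide peaks could lie in the same region. Hexim1, an inhibitor of the elongation factor P-TEFb, had 4.5, 14.3, 54.2 and 31.6 in fold enrichment and 1150, 700, 1948 and 1797 bp in width in the 4 lists (control, Aroclor1260, PCB126, combination). By contrast, Rnpepl1 stayed within 698 to 748 bp and Gjb1, the gap junction protein connexin 32, within 781 to 830 bp.

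Several strongly enriched wide peaks were outside the group of 35 because at least 1 list held them in another shape. Agtr1a, the angiotensin II receptor type 1a, had wide peaks with fold enrichments of 30.9 in the control list, 66.1 after PCB126 and 66.4 after the combination, and a peak of 598 bp with 22.2 after Aroclor1260. Rnf144b, a ubiquitin ligase gene, had 21.2, 48.8 and 41.9 in the same lists and 41.4 in the 599 bp peak after Aroclor1260. Bmp2, a ligand of the bone morphogenetic protein family that induces the iron hormone hepcidin, had wide peaks of 24.9 after Aroclor1260, 40.6 after PCB126 and 39.1 in the combination list, and a control peak of several blocks with 37.5. Arl4d, a small GTPase, had wide peaks of 12.4, 30.7 and 21.2 in the control, Aroclor1260 and PCB126 lists, and a peak of several blocks with 29.8 after the combination. Tor1aip2, a partner of torsin ATPases, reached 49.0 as a wide peak after the combination and 30.6 as a 599 bp peak after PCB126. Depp1, a gene regulated by FOXO factors, was wide after the combination at 41.8, had peaks of several blocks in the control list (41.0) and after PCB126 (20.4), and had none after Aroclor1260.

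A few genes carried wide peaks at several places, 34 genes with 2 or more regions. Apob, the main protein of very low density lipoproteins, had 5. At 4 of them the control list had 1 peak of several blocks with 8741 exonic bp at 10.8, where the combination list had separate wide peaks at 8.48, 12.5, 5.83 and 7.17. At the same 4 regions the PCB126 list had wide peaks at 8.1 and 7.76 and narrower peaks at 7.12 and 7.17, and the Aroclor1260 list had 1 peak of 151 bp at 2.08. The remaining Apob region was wide in the control list alone at 6.44. Golgb1, the Golgi protein giantin, and Srrm2, a splicing cofactor of nuclear speckles, each had 3 regions, 1 of which was wide in all 4 lists. The transcription factor genes Hivep1 and Usf3 also had 3 each, and all of these were wide after PCB126.

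Position in the gene was read from RefSeq gene spans, introns included, since exon models of this build were not used here. The centre of the peak lay in the last 20% of the gene for 58 of 102 wide control peaks, 56.9%, against 53.8% of narrower peaks and 54.0% of all plus-strand single-block peaks. The difference of 3.09 percentage points had a Newcombe 95% interval from -6.99 to 12.7. After Aroclor1260 the shares were 58.5% and 49.8% (50.3% of all), a difference of 8.74 points from -2.43 to 19.2. After PCB126 they were 54.7% and 52.3% (52.5% of all), 2.44 points from -4.28 to 9.02, and after the combination 59.4% and 56.3% (56.6% of all), 3.04 points from -4.32 to 10.1. All 4 intervals include 0, so no difference between the classes was detectable at this number of peaks. These intervals cover counting error only, because peaks of 1 gene are not independent.

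At the start of the gene the classes came apart in 2 of the 4 lists. Wide peaks were centred in the first 20% of the gene in 7.26% of cases after PCB126 against 11.8% of narrower peaks, a difference of -4.56 points from -7.58 to -0.311, and in 6.25% against 10.8% after the combination, -4.57 points from -7.55 to -0.0466. The control list had 5.88% against 11.1% (-5.18, from -8.86 to 1.39) and the Aroclor1260 list 7.32% against 11.8% (-4.45, from -8.82 to 3.47), with intervals that include 0. A peak of at least 600 bp inside a gene cannot be centred in the gene's first 300 bp, a limit that narrower peaks do not share. In the control list, 20.5% of wide peaks began within 1000 bp after a RefSeq start site against 11.1% of narrower peaks (9.5 points, from 1.52 to 20.3), and in the exposed lists that difference had intervals including 0. A gene span of 5000 bp or less was found for 13.7% of wide and 12.3% of narrower control peaks (1.43 points, from -4.29 to 9.62), so wide peaks were not shown to sit in compact genes more often. These further position measures were added after the data were seen.

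**Figure D2:**
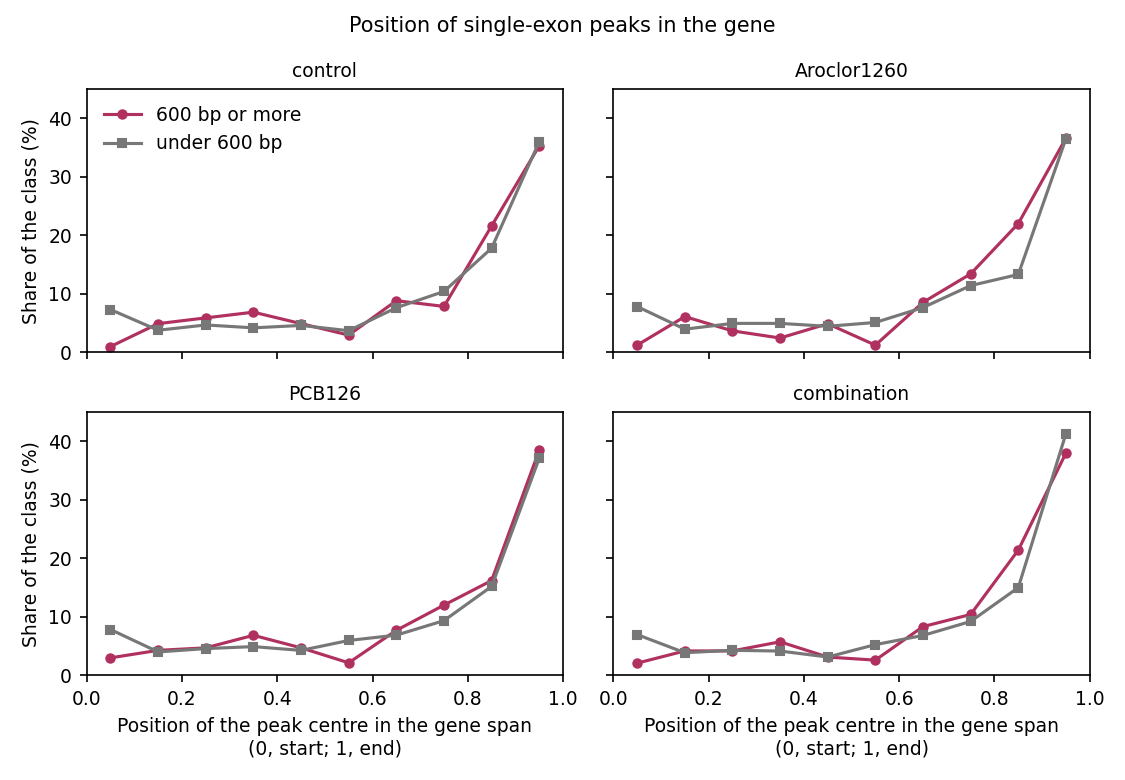
Share of wide (600 bp or more) and narrower peaks whose centre falls in each 10% of the gene span, from the start at 0 to the end at 1, in each of the 4 lists. Both classes are most frequent in the last 10%, 35.3% of wide and 36.0% of narrower control peaks, and in the control list the first 10% of the gene held 0.98% of wide and 7.30% of narrower peaks.

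Persistence asks whether a control peak was met again in a list from other animals, as any peak of the same strand sharing at least 1 exonic base. Of the 104 wide control peaks, 88 (84.6%) were found after Aroclor1260, against 55.3% of the 1265 narrower ones and 57.6% of all single-block peaks. After PCB126, 103 (99.0%) were found, against 80.8% of narrower and 82.2% of all peaks. After the combination, 101 (97.1%) were found, against 76.4% of narrower and 78.0% of all peaks. The differences, wide minus narrow, were 29.3 points (Newcombe 95% interval 20.7 to 35.6), 18.2 points (13.5 to 20.6) and 20.7 points (15.0 to 23.7), each larger than counting error. The 3 exposures share the 1 control list, so these are not separate pieces of evidence. The order of the shares between exposures changed with the number of peaks taken. Each pair of lists was also reduced to the same number of peaks, those with the lowest false discovery rate. The wide and narrower shares were then 84.6% and 55.5% after Aroclor1260, 78.8% and 53.8% after PCB126, and 69.2% and 48.5% after the combination. Aroclor1260 thus moved from the lowest share to the highest, and PCB126 stayed above the combination. Wide peaks stayed ahead in each.

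In the opposite direction, wide peaks of an exposed list were absent from the control list less often than narrower ones. After Aroclor1260, 5 of 86 (5.81%) were absent against 42.3% of narrower peaks and 40.0% of all peaks, a difference of -36.5 points (-40.8 to -28.9). After PCB126, 67 of 238 (28.2%) were absent against 69.2% and 65.5%, a difference of -41.1 points (-46.7 to -34.7). After the combination, 43 of 197 (21.8%) were absent against 63.6% and 60.2%, a difference of -41.7 points (-47.3 to -35.1). Among exposed peaks with a fold enrichment of 8 or more, a range chosen after the data were seen, the difference shrank to -5.48 points for Aroclor1260 (-17.2 to 7.84), -16.6 for PCB126 (-26.9 to -5.72) and -13.6 for the combination (-24.0 to -1.78).

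A longer peak offers more bases to be met, so the centre base alone was also asked for. The control difference was then 31.5 points after Aroclor1260 (22.0 to 39.1), 23.1 after PCB126 (17.0 to 26.5) and 22.9 in the combination list (14.9 to 28.4). Within genes that had both classes in the control list, the wide peaks were found more often by 21.1, 12.8 and 14.5 points, with intervals above 0 in all 3. Found shares already rose across widths below the threshold: for the centre base after Aroclor1260, from 36.4% at 100 to 199 bp to 67.7% at 400 to 499 bp, then 56.4% at 500 to 599 bp and 95.7% at 1000 bp or more. The 600 bp threshold therefore divides a gradual relation, and median fold enrichment rose along with width, from 2.33 at 100 to 199 bp to 9.2 at 1000 bp or more.

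**Figure D3:**
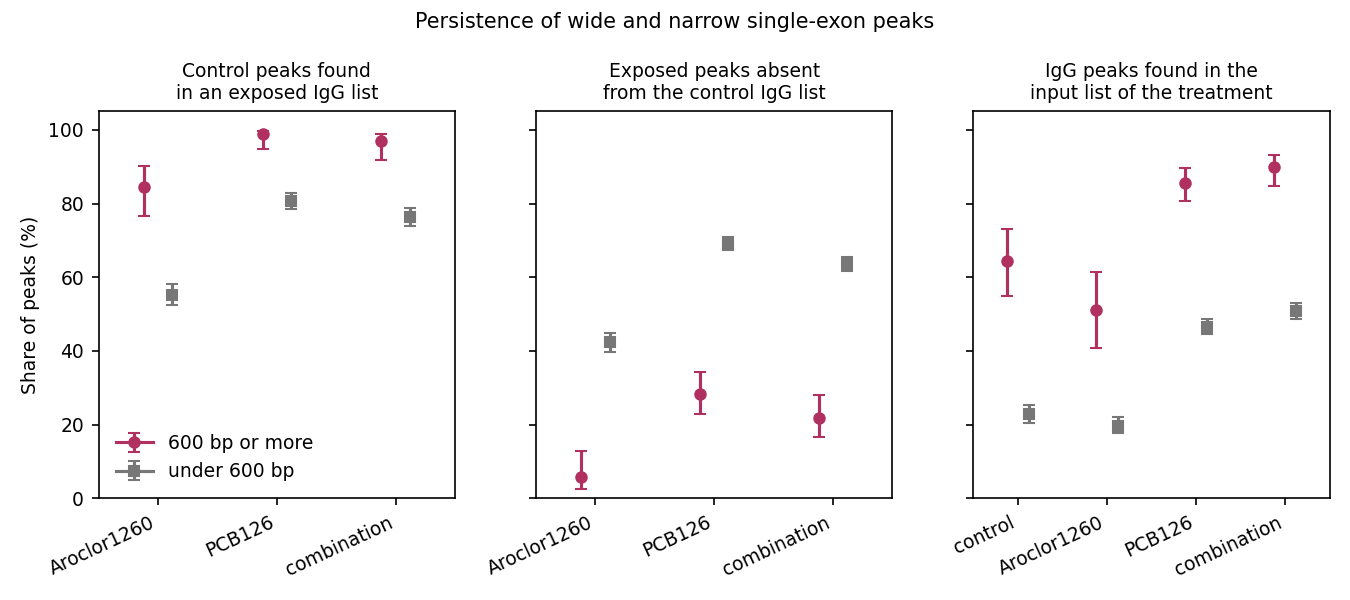
Share of wide (600 bp or more) and narrower single-exon peaks found or absent in another list, with Wilson 95% intervals that cover counting error only. Wide control peaks were found in 84.6% to 99.0% of cases and narrower ones in 55.3% to 80.8%.

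**Figure D4:**
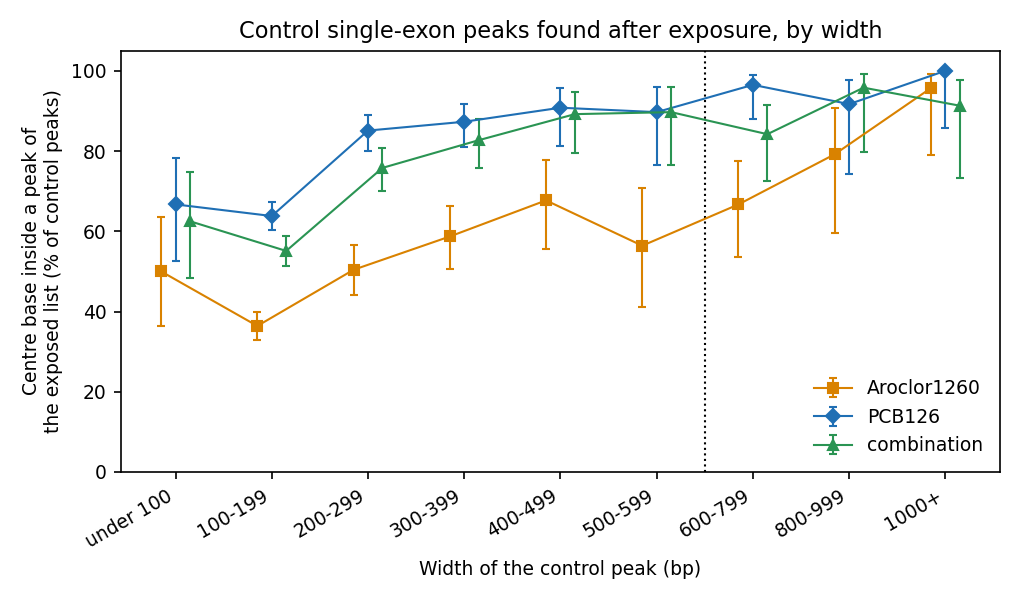
Share of control single-exon peaks whose centre base lay in a peak of an exposed list, by width of the control peak in bp, with Wilson 95% intervals and a dotted line at 600 bp. The Aroclor1260 values lie below those of the other exposures in every range up to 800 to 999 bp, and the rise starts well below the line. These lists differ in length, and at equal numbers of peaks the share of wide control peaks found by any shared base was highest for Aroclor1260, at 84.6% against 78.8% for PCB126 and 69.2% for the combination.

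Fold enrichment moves with width, and shares were therefore also set side by side within ranges of it, chosen after the data were seen. Among control peaks with a fold enrichment of 8 or more, wide peaks were found after Aroclor1260 in 87.0% of cases and narrower ones in 66.0% (20.9 points, from 3.99 to 36.0), and from 4 to 8 in 86.1% and 60.5% (25.7 points, from 9.96 to 35.2). After PCB126 the shares at 8 or more were 100% and 94.3% (5.66 points, from -2.90 to 15.4), and from 4 to 8 they were 97.2% and 93.1% (4.08 points, from -7.54 to 8.18). After the combination they were 97.8% and 96.2% at 8 or more (1.60 points, from -7.96 to 10.8) and 94.4% and 89.9% from 4 to 8 (4.58 points, from -8.34 to 10.2). Above a fold enrichment of 4 the difference between wide and narrower peaks was thus larger than counting error for Aroclor1260 and within it for the other exposures, where nearly all peaks of either class were found. Below 4 it was larger than counting error for all 3, at 24.3, 24.2 and 29.2 points.

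Being found did not always mean being wide. Of the 104 wide control peaks, 46 met a wide peak after Aroclor1260, 34 met only narrower single-block peaks, 8 met a peak of several blocks and 16 met none. After PCB126 the counts were 74, 18, 11 and 1, and after the combination 75, 17, 9 and 3. On average 67.9% of the bases of a wide control peak were covered again after Aroclor1260, 91.4% after PCB126 and 85.8% in the combination list, against 39.9%, 68.8% and 60.9% for narrower peaks. A wide control peak was split over 2 or more peaks in 40 cases after Aroclor1260 and 31 after PCB126.

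**Figure D5:**
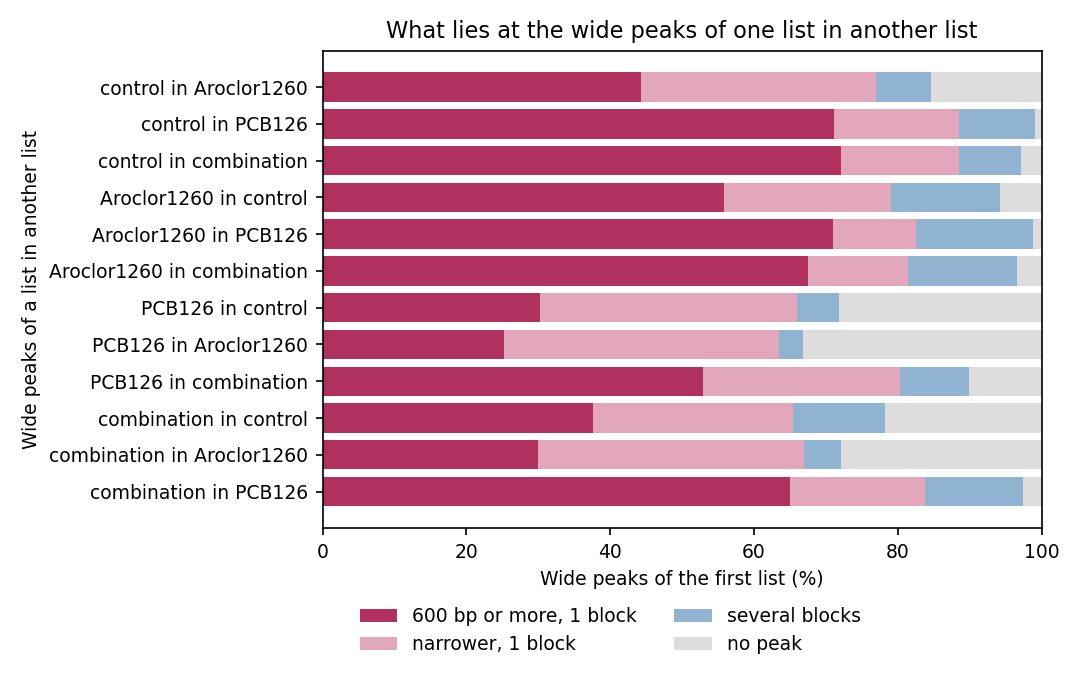
What lies at the wide peaks of 1 list in another list called against IgG, as stacked shares of the wide peaks of the first list. Wide peaks of the control list met another wide peak in 44.2% of cases after Aroclor1260, 71.2% after PCB126 and 72.1% in the combination list.

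Against input, a second reference for the same m6A libraries, wide peaks were met again more often in each list. In the control list 64.4% of wide and 22.8% of narrower peaks overlapped an input-referenced peak (25.9% of all), a difference of 41.7 points (31.8 to 50.5). After Aroclor1260 it was 51.2% and 19.7% (21.7% of all), 31.4 points (20.8 to 41.9). After PCB126 it was 85.7% and 46.6% (50.2% of all), 39.1 points (33.7 to 43.5), and after the combination 89.8% and 50.9% (54.0% of all), 38.9 points (33.5 to 43.0). Within ranges of fold enrichment the difference kept its direction, with intervals above 0 in 5 of the 12 ranges over 4 lists.

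Wide peaks also lay at genes without any control peak against IgG, though less often than narrower peaks did. By identifier this held for 5.81% of wide and 24.9% of narrower peaks after Aroclor1260, 28.2% and 52.9% after PCB126, and 21.8% and 46.2% after the combination. After Aroclor1260 there were 4 such genes. Cic, the transcriptional repressor capicua, which acts downstream of receptor tyrosine kinases, had the highest fold enrichment of the 4, at 11.4. Rundc1 followed with 6.4 and Bsdc1 with 3.6. The fourth identifier, ENSMUSG00000097971, had the longest wide peak of any list, 2783 bp at chr17:39843559-39846341, but a fold enrichment of 1.74, and it had no peak in any other list of either reference. No gene of the RefSeq table lies at this place, and whether the identifier stands for messenger RNA is unknown. Cic was wide in all 3 exposed lists at chr7:25271473-25273622, with 23.0 after PCB126 and 19.4 after the combination, and had no control peak against input either.

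After PCB126, 63 genes with a wide peak had no control peak against IgG, and 56 of them had none against input. Pde4b, a phosphodiesterase that breaks down cyclic AMP, had the highest value, 47.6 at chr4:102605018-102605765, and no peak against IgG there in any of the other 3 lists. Arhgap29, another GTPase-activating protein, had 38.5 and peaks of several blocks after Aroclor1260 (20) and the combination (63.6). Hjv encodes hemojuvelin, the co-receptor that drives hepcidin expression in hepatocytes, and had 28.4 after PCB126, 7.0 as a wide peak after the combination and 3.6 as a narrower peak after Aroclor1260. Gzf1, a zinc finger protein gene, had 27.4 after PCB126 and a narrower peak with 7.6 after the combination. Ccnt2, which encodes a cyclin of P-TEFb, had 24.8 over 1650 bp after PCB126 and no peak there in the other 3 lists against IgG.

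After the combination, 42 genes with a wide peak had no control peak against IgG, and 35 of them had none against input, though 1 of their 43 peaks overlapped a control peak under another identifier. Cic led with 19.4, followed by Foxk1, a forkhead transcription factor gene, with 17.8 and Mdfic, a gene for a regulator of transcription, with 16.2. Myo9b, an unconventional myosin, had 13.9, and Slc30a1, a zinc exporter of the plasma membrane, had 13. At each of these the PCB126 list also had a wide peak, with 10.4 at Foxk1, 6.7 at Mdfic, 14.5 at Myo9b and 8.1 at Slc30a1. Myo9b and Slc30a1 had control peaks when called against input.

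In the reverse case, 15 genes with a wide control peak had no Aroclor1260 peak against IgG, and 13 of these had none against input. By identifier 85.6% of wide and 71.4% of narrower control peaks had one in the Aroclor1260 list, so the loss was again less frequent among wide peaks. Cped1 had the highest control value, 21.8, and was met after PCB126 by a peak of several blocks with 22.8 and after the combination by a 599 bp peak with 24.7. Ptprb, a receptor phosphatase of endothelial cells, had 17.2 in the control list and narrower peaks with 20 and 18.6 after PCB126 and the combination. Both had an Aroclor1260 peak against input. Onecut2, a hepatocyte transcription factor gene, had 12.6 in the control list, 9.4 after PCB126 and 8.3 after the combination, and none after Aroclor1260 against either reference. Nufip2, which binds RNA, had 10.6, 9.4 and 6.0 in the same lists, and Tacc2, a centrosomal protein gene, had 8.4, 8.0 and 3.24. The identifier ENSMUSG00000093662 (4.4 in the control list) had no PCB126 peak under its own name, but narrower peaks of another identifier overlapped it, at up to 7.0. After the combination, 2 control genes had none against IgG, 1810055G02Rik with 11.2 and Cmpk2, a mitochondrial nucleotide kinase, with 5.6. Called against input, 1810055G02Rik had a combination peak and Cmpk2 had none.

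Gene groups are counted over the 4 lists as members with a wide peak among members with any peak against IgG, beside 286 of 1392 loci (20.5%) over all genes. The lists were written with earlier results of these data known, so the counts describe and support nothing. They also leave out some genes of the classes named, so each share holds for the listed members only. A member wide in a single list could have narrower peaks or peaks of several blocks in the others. Immediate early and intronless transcription factors had 8 of 15 (53.3%). Besides Jund, Bhlhe40 and Cebpb, Cebpa, which sets hepatocyte identity, had wide peaks with 10.2 in the control list, 18.2 after PCB126 and 15.4 after the combination, and a narrower one with 7.17 after Aroclor1260. Cebpd was wide with 10.1 after PCB126 and 12.9 after the combination, Egr1 with 5.4 and 8.0, Foxo1 with 8.1 after PCB126 and Irf2bp1 with 22.4 after the combination. Hepatocyte transcription factors and nuclear receptors had 4 of 8 (50%), among them Onecut2, Rxra, Ppara and Xbp1. Rxra, the common partner of nuclear receptors, was wide with 3.38 in the control list, 6.0 after Aroclor1260 and 6.38 after the combination. Ppara, the fatty acid sensor, was wide in PCB126 alone with 5.1. Its strongest peaks of any shape had 11.5 (control), 12.1 (Aroclor1260), 26.6 (PCB126) and 11.8 (combination). Xbp1, of the unfolded protein response, was wide in the combination alone with 3.15. Narrower Xbp1 peaks had 2.27 (control), 4.13 (Aroclor1260) and 6.07 (PCB126).

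Chromatin regulators had 12 of 23 (52.2%). Chd7, a chromodomain remodeller, was wide in all 4 lists with 13, 8.4, 34.2 and 31.4 in the 4 lists (control, Aroclor1260, PCB126, combination), and Nsd1, a histone methyltransferase, with 8.4, 7.4, 15.4 and 5.73. Ash1l, another histone methyltransferase, was wide in the exposed lists with 5.0, 9.4 and 6.2, and Arid1b, a subunit of the BAF remodelling complex, with 3.9, 13.2 and 13.2. Kmt2e, Setd1b, Chd9 and Asxl2 were wide in the PCB126 list alone, with 9.0, 5.0, 6.4 and 9.2, and Ep300, an acetyltransferase, in the control list alone with 4.4. Arid4a was wide after Aroclor1260 (8.6) and PCB126 (5.6), and Mga after PCB126 (12.8) and the combination (3.2). Of these 12, counting Cic, 11 were wide after PCB126, where the background share of wide identifiers was also the highest of the 4 lists.

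Receptors had 9 of 19 (47.4%). Beside Agtr1a, Il6st, the shared signalling receptor of the interleukin 6 family, was wide with 9.2 in the control list, 5.8 after Aroclor1260 and 10.3 after the combination, and had a peak of several blocks with 20.9 after PCB126. The interleukin 1 receptor gene Il1r1 had 19.8 after PCB126 and 11.7 after the combination. Lgr4, which binds R-spondins, had 14.2 and 5.4, the Wnt receptor gene Fzd4 had 17.2 and 9.6, and Notch2, which guides bile duct formation, had 9.7 and 7.8 in the same lists. These 4 had no peak at the gene against IgG in the control or Aroclor1260 list. Called against input, however, Il1r1 had a control peak, and the regions of Il1r1 and Notch2 each had a peak in 3 of the 4 lists. Egfr and Lifr were wide after the combination alone, with 9.4 and 11.4, but had peaks of other shapes elsewhere. At the Egfr region PCB126 had a peak of several blocks with 51.8 and Aroclor1260 a narrower one with 5.0. At the Lifr region the control and PCB126 lists had peaks of several blocks with 10.6 and 12.8. Klb, the co-receptor for FGF21, was wide after PCB126 alone with 5.2. Its region had narrower peaks with 4.6 in the control list, 1.8 after Aroclor1260 and 3.8 after the combination.

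Zinc finger genes, taken by symbol, had 15 of 36 (41.7%), and 5 of these were wide in the PCB126 list alone. Zfp281, a transcription factor of pluripotent cells, was wide with 6.2 in the control list, 19.2 after PCB126 and 14.4 after the combination, and Zkscan1 with 4.2, 8.6 and 5.6 in the same lists. Zbtb18 was wide with 5.2 in the control list and 10 after PCB126, and Zbtb7a with 12.0 after Aroclor1260 alone. Zfpm1, a cofactor of GATA factors, had 7.4 and 13.4 after PCB126 and the combination, and Zfp638 had 7.2 and 7.4. The 5 that were wide after PCB126 alone, Zbtb1, Zbtb10, Zbtb22, Zfp1 and Zfp646, ranged from 6.6 to 13, and Zfhx3, Zfhx4, Zfp574 and Zfp703 were wide after the combination alone, from 3.2 to 8.2.

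RNA decay and RNA-binding genes had 4 of 11 (36.4%). Tob1, which recruits the deadenylase complex, was wide with 6.8, 7.6 and 17.0 in the control, Aroclor1260 and PCB126 lists, and Tnrc6c, a partner of Argonaute, with 15.8 after PCB126. Son, a speckle protein, was wide with 2.9 in the control list, 7.4 after PCB126 and 6.2 after the combination. Apolipoprotein and lipoprotein genes had 4 of 12 (33.3%). Apon was wide in all 4 lists with 3.43, 4.1, 8.23 and 5.3.

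Lipid synthesis and oxidation genes had 4 of 10 (40.0%), none above 6.2 in the fold enrichment of a wide peak. Lpin2, a phosphatidate phosphatase, had 6.2, 4.55 and 4.43 in the control, Aroclor1260 and combination lists, and a peak of several blocks with 12.6 after PCB126. Cpt1a, the entry step of fatty acid oxidation in mitochondria, was wide with 6.0 after Aroclor1260, and Elovl5 of fatty acid elongation with 3.23 after the combination. Regulators of small GTPases had 3 of 6 (50%), with Arhgap5, Arhgap29 and, at 14.8 after PCB126, Arhgap32. Listed ubiquitin ligases and adaptors had 3 of 14 (21.4%), close to the share over all genes. These were Rnf43 (16.4 after PCB126, 7.2 after the combination), Rnf213 (6.72 after PCB126) and Klhl25 (6.2 after the combination). Rnf144b, wide in 3 lists, and Rnf103, another ubiquitin ligase gene wide in all 4, were not on the list. The share therefore covers listed members only. Listed coagulation and plasma protein genes, a class among the most abundant transcripts of liver, had 0 of 24 with a wide single-exon peak. Proz, a coagulation gene outside the list, was wide in all 4 lists with 3.48, 8.0, 11.4 and 7.0 (control, Aroclor1260, PCB126, combination). Serpina3n, a plasma protein gene outside it, was wide after PCB126 (3.36) and the combination (6.0). Listed aryl hydrocarbon receptor targets had 0 of 2.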

How the data were processed

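The 4 lists called against IgG and the 4 called against input are MeTPeak output per the labels, with 1 list per treatment and no value per animal. Per the submitters' processing notes, reads were handled with BWA 0.7.17, Trimmomatic, FastQC 0.10.1 and bcl2fastq 2.20.0.422 on build mm10. No source used here gives settings, the caller's version or its annotation.

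Per the file headers, each deposited peak carries a fold enrichment (a linear ratio of immunoprecipitate over reference), its p-value and a log10 false discovery rate, at most 0.049 on the linear scale. These are the authors' values for single peaks and were not tested. The caller's choice of windows and its annotation set both peak width and block number, and the deposited lists hold no reads with which to check them.

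Identifiers were named by position from the RefSeq table of GRCm38.p6, where a gene held at least 80% of an identifier's exonic peak bases, which named 1461 of 1512. Where several genes qualified, those of known opposite strand were dropped if another stayed, and a single protein-coding gene was taken over the rest. Peaks were matched when they shared at least 1 exonic base on the same strand. Shares have Wilson and differences Newcombe 95% intervals, which cover counting error only, since peaks of a gene are not independent. The scripts (Python 3.11.15, numpy 2.4.6, pandas 2.3.3, matplotlib 3.10.9) were tested on simulated data. The members and gene lists were chosen with earlier results of these data known. Named genes were, per list, the 10 strongest and 5 longest wide peaks, the 10 strongest regions wide in 4 lists, the 5 strongest without a control or exposed peak, listed genes with a wide peak, and 3 on each side of the width threshold. Other genes named among the regions were chosen after their values were seen. Alternatives were the width threshold, the match rule, 1 peak per gene, the end of the gene counted, equal numbers of peaks and higher fold enrichments. Some results are not reported here.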

Additional observations from a re-analysis of the deposited data

Results flagged for a closer look

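Blocks of 600 bp or more also occurred in peaks that the definition leaves out, and their counts in 2 exposed lists lay above the control count. Plus-strand peaks of several blocks with at least 1 such block numbered 111 in the PCB126 list and 72 in the combination list, against 53 in the control list and 40 after Aroclor1260. As a share of all plus-strand peaks of several blocks they were 8.28% and 6.64%, against 8.23% in the control list and 6.28% after Aroclor1260, so the share was not higher in step with the count. Minus-strand single-block peaks of this width numbered 6 in the PCB126 list and 6 in the combination list, against 3 in the control list and 1 after Aroclor1260, which are 4.55%, 5.26%, 5% and 1.32% of such peaks. Neither kind was analysed further.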

How the results depend on the processing

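No paired analysis was possible because the lists carry no value for any single animal, and for the same reason no replicate could be left out. Wide peaks were absent from the control list less often than narrower ones, and met against input more often, under all 84 alternative values for these 7 results, from -48.5 to -17.7 points and from 19.0 to 52.4 points. Being found in an exposed list kept its direction and an interval above 0 in 34 of 36 values. The exceptions restricted control peaks to a fold enrichment of 5 or more, an alternative added after the data were seen, where the difference was 3.8 points after PCB126 (-2.68 to 7.83) and 3.85 after the combination (-4.10 to 9.07). For the share in the last 20% of the gene, the difference had intervals including 0 in the main setting. It stayed positive for Aroclor1260, from 0.0422 to 14.0 points, and had no settled sign in the control, PCB126 and combination lists. It reversed with 1 peak per gene and class to -2.21 points (control), -0.153 (PCB126) and -1.34 (combination), with the last 10% of the gene to -0.689 (control) and -3.30 (combination), and with a fold enrichment of 5 or more to -2.35 (control) and -0.893 (combination). For Aroclor1260 it passed counting error with a 500 bp threshold (12.4 points, from 3.39 to 20.9) and by the high-coordinate end of the peak (14.0 points, from 2.87 to 23.9). The cause was not tested. The wide share of single-block peaks moved by construction, to 10.4%, 9.97%, 12.7% and 11.9% at 500 bp, to 3.43%, 3.20%, 4.84% and 4.16% at 800 bp, and to 9.73%, 8.23%, 10.5% and 9.53% among peaks with a fold enrichment of 2 or more, listed as control, Aroclor1260, PCB126, combination. In each of these settings the intervals after PCB126 and Aroclor1260 overlapped, unlike those of the main setting. Read depth is unknown, and animals are not represented.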
